A study of Homo sapiens with 15 samples.

Results

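Ov4Cis and Ov4Carbo4 are 2 platinum-resistant derivatives of OVCAR4, an established human cell line of high-grade serous ovarian carcinoma. Their RNA was compared here over all 16604 genes of the deposited expression table, with 3 samples of each line taken from the 15 samples of 5 lines in the series. Ov4Cis is labelled cisplatin resistant and was selected in rising concentrations of cisplatin. Ov4Carbo4 is labelled carboplatin resistant and was grown from 1 single cell of Ov4Carbo, the population that had been selected in the same way in carboplatin, so it represents 1 clone. Selection stopped, per the labels' protocols, when the IC50, the concentration of median inhibition, had risen between 2 and 10 times. All lines share the OVCAR4 origin and were grown in DMEM with serum and antibiotics, and the labels mention no drug in the cultures from which RNA was taken. The other lines, used as levels for reference, were the platinum-sensitive parental OVCAR4, the population Ov4Carbo and a second single-cell line of it, Ov4Carbo7. The series describes the 3 samples of a line as biological replicates. The p-values rest on the spread between cultures within a line, pooled over the 5 lines. They do not measure the spread between independent selections.

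The sample titles carry numbers in 2 series. All Ov4Carbo4 samples belong to the first and all Ov4Cis samples to the second, so the 2 lines and the 2 title series cannot be told apart in this comparison. The labels do not call the series a batch. The sole line with samples in both is Ov4Carbo, with replicate 1 in the first series and replicates 2 and 3 in the second. The pooled spread behind the p-values therefore also holds any difference between the title series within Ov4Carbo. A fit with a term for the title series rests on that line alone, and its values are given beside the genes described whose call it ended or made, and beside called genes whose difference it moved by over 1.5 times.

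Epithelial cells are held together by E-cadherin junctions, tight junctions and desmosomes, and their gene programme is kept up by transcription factors such as GRHL2 and OVOL2 and by the splicing regulators ESRP1 and ESRP2. ZEB1 represses this programme, and loss of E-cadherin alongside a gain of N-cadherin is the textbook picture of an epithelial-mesenchymal transition. Serous ovarian carcinomas usually keep epithelial and Mullerian markers such as PAX8, the cell-surface mucin MUC16 (the CA125 antigen) and keratins. Cisplatin and carboplatin both form DNA crosslinks, and handling of the drugs involves copper transporters, thiols such as glutathione, metallothioneins and crosslink repair. Inflammatory chemokines of the CXCL family are classical targets of the transcription factor NF-kB.

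Ov4Cis and Ov4Carbo4 differed in 2797 genes, 16.8% of those tested, at a limma adjusted p under 0.05 and an absolute log2 difference of at least 1. A gene past both limits is referred to as called, and every difference is Ov4Cis minus Ov4Carbo4 on the log2 scale. Of the called genes 1515 were higher in Ov4Cis, 9.12% of all genes tested, and 1282 were lower, 7.72%. At the adjusted p alone 7308 genes passed. For 2779 of the called genes the 3 values of one line all lay above the 3 of the other. Over all genes this separation occurred upwards in Ov4Cis for 30.4% and downwards for 33.2%. The root-mean-square difference per gene ran from 1.17 to 1.24 log2 units between samples of the 2 lines, against 0.30 to 0.50 between replicates of Ov4Cis and 0.32 to 0.36 between those of Ov4Carbo4.

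**Figure D1:**
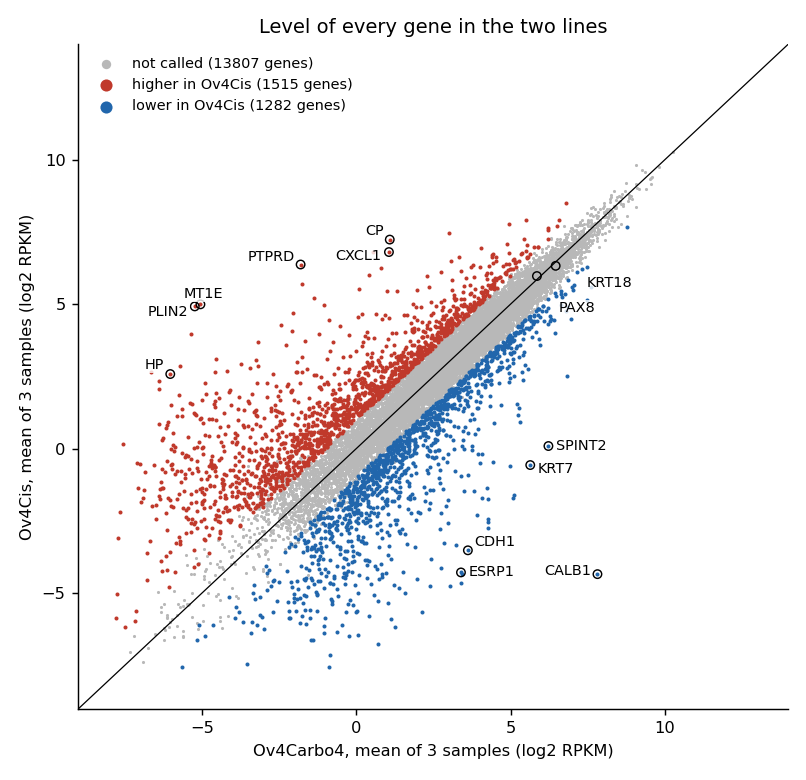
Mean level of each gene in Ov4Carbo4 (x axis) and Ov4Cis (y axis), both in log2 RPKM over 3 samples, with genes called higher in Ov4Cis in red (1515), called lower in blue (1282), all others in grey, and the line of equal levels in black. Circled genes are described in the text: CALB1, SPINT2, KRT7, CDH1 and ESRP1 lie far below the line, PTPRD, CP, CXCL1, MT1E, PLIN2 and HP far above it, and PAX8 and KRT18 on it.

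The values are log2 RPKM (reads per kilobase of transcript, scaled to library size) after conditional quantile normalization, so the samples have nearly the same distribution, with medians of 2.77 in all 15, and a shift of the whole transcriptome could not be seen. The depth of each sample is unknown. The lowest value of a sample lay between -8.18 and -7.68, and a value near that end can rest on very few reads. For genes that low in one line the size of a log2 difference is uncertain. The difference after adding a pseudocount of 1 to the RPKM is then given as well, and it makes changes of weakly expressed genes look smaller than they are. Of the 2797 called genes, 1625 reached a mean of log2 RPKM 1 in the higher line, 873 of them higher and 752 lower in Ov4Cis.

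The lineage markers PAX8, SOX17 and KRT18 were expressed in both lines and did not pass the test, while other genes of the serous and Mullerian list did. PAX8, a transcription factor of the Mullerian tract, stood at 6.09, 5.92 and 5.90 log2 RPKM in Ov4Cis and 5.74, 5.91 and 5.91 in Ov4Carbo4, and SOX17, another factor of that lineage, at 7.18, 8.12 and 7.97 log2 RPKM in Ov4Cis and 7.66, 7.74 and 7.71 in Ov4Carbo4. The ranges overlapped for both, with differences of 0.12 (SE 0.12, adjusted p = 0.471) and 0.06 (SE 0.25, adjusted p = 0.877). KRT18, a keratin of simple epithelia, also overlapped, at 6.56, 6.10 and 6.31 log2 RPKM in Ov4Cis and 6.71, 6.27 and 6.41 in Ov4Carbo4. WT1 was low in both, between -2.70 and -0.98 over the 6 samples. Of 17 measured genes in a list of serous and Mullerian lineage genes, 4 were called higher and 5 lower. That was 52.9% against 16.8% over all genes. The median difference was 0.04, against -0.03 over all genes.

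The genes of this list lower in Ov4Cis included MUC16, MSLN, CRABP2 and EMX2. MUC16 stood at -2.44, -1.17 and -1.57 log2 RPKM in Ov4Cis and 4.62, 4.16 and 4.0 in Ov4Carbo4, so that no Ov4Cis sample came within several log2 units of an Ov4Carbo4 sample, with a difference of -5.99 (SE 0.49, adjusted p = 1.48e-06). Mesothelin (MSLN), a surface antigen of serous tumours and of mesothelium, was at -2.12, -2.47 and -2.28 log2 RPKM in Ov4Cis and 0.46, 0.50 and 0.29 in Ov4Carbo4, a difference of -2.70 (SE 0.24, adjusted p = 3.29e-06) that was -0.95 on the log2(RPKM + 1) scale and not called there. CRABP2, a carrier of retinoic acid, differed by -2.37 (SE 0.25, adjusted p = 1.02e-05) and EMX2, a homeobox gene of the urogenital tract, by -2.11 (SE 0.20, adjusted p = 5.84e-06). EMX2 has an antisense neighbour, and without a stated strand setting its reads are uncertain. GATA6 was higher in Ov4Cis at 1.68, 1.59 and 1.85 log2 RPKM in Ov4Cis and -0.47, -0.84 and -0.71 in Ov4Carbo4, a difference of 2.38 (SE 0.30, adjusted p = 5.13e-05, 3.69 with a title series term), and CD47, a surface signal against phagocytosis, by 1.08 (SE 0.17, adjusted p = 0.000309, 1.62 with a title series term). The CD47 call was lost when replicate 2 or replicate 3 of Ov4Cis was left out.

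Markers of other cell types with a mean above log2 RPKM 1 in either line were 0 leukocyte, 3 endothelial, 1 fibroblast and 1 mesothelial. Of 14 leukocyte genes 2 were measured, both not called, with summed levels of 1.29 to 1.96 RPKM in Ov4Cis and 0.71 to 1.18 in Ov4Carbo4. Of 10 endothelial genes 5 were measured and 2 called higher, and their summed level was 87.9 to 99.2 RPKM in Ov4Cis and 27.0 to 32.9 in Ov4Carbo4. TIE1, an endothelial receptor tyrosine kinase, was at 5.59, 5.54 and 5.43 log2 RPKM in Ov4Cis and 0.53, 0.29 and -0.52 in Ov4Carbo4, called at 5.42 (SE 0.30, adjusted p = 5.96e-08), and its line means in the other 3 lines lay between 0.18 and 0.77. VE-cadherin (CDH5) was at 4.98, 5.29 and 5.12 log2 RPKM in Ov4Cis and 4.59, 4.31 and 4.36 in Ov4Carbo4, and ERG at 2.89, 3.56 and 3.39 log2 RPKM in Ov4Cis and 2.65, 2.34 and 2.58 in Ov4Carbo4. Their differences of 0.71 (SE 0.14, adjusted p = 0.00118) and 0.76 (SE 0.21, adjusted p = 0.0125) passed the adjusted p but not the size limit, so neither was called. Both were called with a title series term, at 1.1 (adjusted p = 0.00246) and 1.24 (adjusted p = 0.021). KDR was called higher by 2.76 (SE 0.42, adjusted p = 0.000214) but lay below log2 RPKM 0 in all 6 samples, and its difference was 1.80 (adjusted p = 0.074) with a title series term. Of 11 fibroblast genes 5 were measured, with 3 called higher, 1 lower and a median of 1.57. THY1, PDGFRB and COL1A2 were called higher, at 2.53 (SE 0.29, adjusted p = 2.24e-05), 2.91 (SE 0.36, adjusted p = 4.51e-05, 1.5 with a title series term) and 1.57, but lay below log2 RPKM -1 in all 6 samples, and none of the 3 was called on the log2(RPKM + 1) scale. COL1A1, the 1 marker above log2 RPKM 1, was called lower and is described with the matrix. The summed level of the fibroblast list was 4.42 to 6.62 RPKM in Ov4Cis and 11.5 to 14.7 in Ov4Carbo4. Of 10 mesothelial genes 6 were measured, with 1 called higher and 2 lower. UPK3B was called higher at 1.68 (SE 0.20, adjusted p = 2.63e-05) with values of 4.89, 5.79 and 5.42 log2 RPKM in Ov4Cis and 3.59, 3.91 and 3.57 in Ov4Carbo4. MSLN and KRT5 were called lower, KRT5 at -2.61 (SE 0.44, adjusted p = 0.000494) from values below log2 RPKM -2 in all 6 samples. The mesothelial sum was 31.8 to 58.1 RPKM in Ov4Cis and 14.7 to 17.8 in Ov4Carbo4. The part that other cells might have in any result was not tested. In bulk RNA of this kind, fewer cells with a transcript and less of it per cell cannot be told apart.

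The called gene with the largest negative difference was CALB1 (calbindin, a calcium-binding protein, ENSG00000104327, chromosome 8). It stood at -4.74, -4.03 and -4.25 log2 RPKM in Ov4Cis and 7.83, 7.92 and 7.69 in Ov4Carbo4, a difference of -12.15 (SE 0.39, adjusted p = 8.36e-10). With the pseudocount it was -7.75. It was among the abundant transcripts of Ov4Carbo4 and close to the lower end of the scale in Ov4Cis. Its mean was 1.11 in the parental line, 5.20 in Ov4Carbo and 6.50 in Ov4Carbo7. ROBO1, a receptor for SLIT guidance cues on chromosome 3, was at -2.31, -0.83 and -1.71 log2 RPKM in Ov4Cis and 5.10, 4.98 and 5.23 in Ov4Carbo4, a difference of -6.72 (SE 0.30, adjusted p = 8.83e-09). Its parental mean was 0.19, against 5.80 in Ov4Carbo. SFN, the 14-3-3 sigma protein of epithelia, was at -1.73, -1.75 and -1.62 log2 RPKM in Ov4Cis and 5.12, 5.02 and 5.08 in Ov4Carbo4 (difference -6.77, SE 0.14, adjusted p = 9.5e-12) and varied little within either line. FLNC, an actin crosslinker, differed by -5.59 (SE 0.39, adjusted p = 3.4e-07), and TMTC1 by -4.33 (SE 0.35, adjusted p = 1.18e-06). The other 7 of the 12 largest falls were SPINT2, KRT7, CLDN4, PRSS8, KRT19, MUC16 and LOXL1.

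PTPRD, a receptor tyrosine phosphatase (ENSG00000153707, chromosome 9), had the largest rise on the log2(RPKM + 1) scale, 6.0. It stood at 6.40, 6.25 and 6.46 log2 RPKM in Ov4Cis and -1.87, -1.06 and -2.48 in Ov4Carbo4, a difference of 8.17 (SE 0.81, adjusted p = 6.86e-06), and at means of 0.09 in the parental line, -1.08 in Ov4Carbo and 1.91 in Ov4Carbo7. The related phosphatase PTPRM was at 6.17, 6.30 and 6.28 log2 RPKM in Ov4Cis and 0.66, 0.90 and 0.81 in Ov4Carbo4 (difference 5.46, SE 0.10, adjusted p = 4.08e-12). For PTPRM it was Ov4Carbo4 that stood apart, since the other 4 lines had means between 5.89 and 6.82. NNMT, which methylates nicotinamide, was likewise lowest in Ov4Carbo4 among the 5 lines, with 6.86, 5.38 and 5.82 log2 RPKM in Ov4Cis and 0.74, 0.27 and 0.19 in Ov4Carbo4 and a difference of 5.62 (SE 0.32, adjusted p = 8.25e-08). PLIN2, which coats lipid droplets, had the largest positive log2 difference among the called genes, 10.15 (SE 1.28, adjusted p = 4.61e-05, 16.39 with a title series term), from values of 6.09, 4.31 and 4.36 log2 RPKM in Ov4Cis and -4.95, -6.0 and -4.74 in Ov4Carbo4. With the pseudocount it was 4.93. Among the largest rises, CP, CPP, CXCL1, CXCL5, CXCL8 and MT1E are described with their families. CPP is a processed pseudogene of CP, and its reads may belong to CP.

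**Figure D2:**
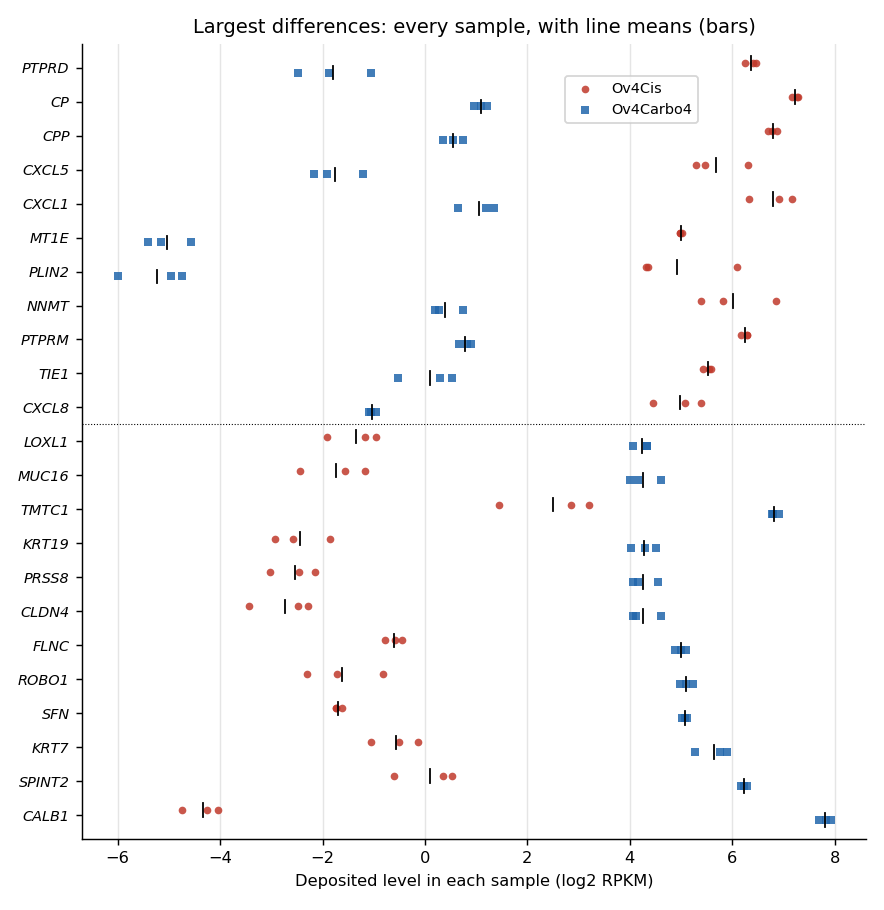
Deposited level (x axis, log2 RPKM) of genes with the largest rises (above the dotted line) and the 12 largest falls (below it) in each of the 3 Ov4Cis samples (red circles) and 3 Ov4Carbo4 samples (blue squares), with line means as black bars, ordered by the difference on the log2(RPKM + 1) scale. No pair of groups overlaps, because only genes without overlap could be selected. CALB1 has the widest gap of the falls, from -4.03 in the highest Ov4Cis sample to 7.69 in the lowest Ov4Carbo4 sample.

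Epithelial adhesion genes were lower in Ov4Cis almost throughout. Of 22 measured genes of junctions and polarity, 16 were called lower and 0 higher, 72.7% against 16.8% over all genes. The median difference was -2.21. E-cadherin (CDH1, ENSG00000039068, chromosome 16), the core adhesion protein of epithelia, stood at -3.0, -4.06 and -3.49 log2 RPKM in Ov4Cis and 3.52, 3.93 and 3.41 in Ov4Carbo4, a difference of -7.13 (SE 0.32, adjusted p = 8.84e-09). EPCAM, an epithelial adhesion molecule, was at 0.76, 1.52 and 1.24 log2 RPKM in Ov4Cis and 5.28, 5.16 and 5.26 in Ov4Carbo4 (difference -4.06, SE 0.19, adjusted p = 1.51e-08). CLDN4, a tight-junction claudin, was at -2.47, -2.28 and -3.43 log2 RPKM in Ov4Cis and 4.06, 4.61 and 4.11 in Ov4Carbo4 (difference -6.99, SE 0.28, adjusted p = 4.23e-09), CLDN7 differed by -2.63 (SE 0.42, adjusted p = 0.000303, -4.22 with a title series term), and LSR, which organises tricellular junctions, by -4.38 (SE 0.23, adjusted p = 3.24e-08). The groups of all 5 genes did not overlap between the lines. OCLN and CLDN3 were also called, at -1.06 and -1.02 (-1.73 for CLDN3 with a title series term), while F11R, CGN, MUC1, AP1M2 and PARD6B were among those not called. The summed level of the list was 109 to 118 RPKM in the Ov4Cis samples and 301 to 343 in those of Ov4Carbo4. It was 233 to 247 in Ov4Carbo7, 291 to 378 in Ov4Carbo and 594.5 to 684 in the parental line. By this measure Ov4Carbo4 was the more epithelial of the 2 single-cell lines, and Ov4Cis was below every other line.

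The regulators of the epithelial programme were lower too, with 11 of 13 measured genes called lower and 0 called higher. That was 84.6% against 16.8% over all genes, and the median was -2.73. The splicing regulator ESRP1 was at -3.90, -3.74 and -5.21 log2 RPKM in Ov4Cis and 3.47, 3.39 and 3.32 in Ov4Carbo4 (difference -7.67, SE 0.48, adjusted p = 1.39e-07), and its paralog ESRP2 at -0.24, -1.73 and -1.05 log2 RPKM in Ov4Cis and 2.68, 2.65 and 2.75 in Ov4Carbo4 (difference -3.70, SE 0.27, adjusted p = 6.14e-07). OVOL2, a repressor of mesenchymal genes, was at -3.62, -2.32 and -3.33 log2 RPKM in Ov4Cis and 0.97, 0.84 and 0.70 in Ov4Carbo4 (difference -3.93, SE 0.25, adjusted p = 1.79e-07). GRHL2 was called at -5.62 (SE 0.72, adjusted p = 5.41e-05, -9.09 with a title series term), but it was below log2 RPKM 0 in Ov4Carbo4 as well, at -0.37, -0.51 and -0.53, against a parental mean of 3.43. On the log2(RPKM + 1) scale the GRHL2 difference was -0.76 and not called. TFAP2A and TFAP2C were the 2 members that were not called, and a title series term called TFAP2C higher (1.25, adjusted p = 0.00723). On the log2(RPKM + 1) scale 7 of the 13 were called lower, with a median of -1.23, and 4 with genes under a mean of log2 RPKM 1 left out.

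Matriptase (ST14) is a membrane serine protease of epithelia, activated together with prostasin (PRSS8) and held in check by the Kunitz inhibitors SPINT1 and SPINT2. All 4 were called lower in Ov4Cis, as were 11 of the 12 measured members of this list, 91.7% against 16.8% over all genes. The list's median of -4.80 was the lowest of all 27 lists. SPINT2 stood at -0.60, 0.52 and 0.35 log2 RPKM in Ov4Cis and 6.29, 6.16 and 6.22 in Ov4Carbo4 (difference -6.13, SE 0.23, adjusted p = 2.41e-09) and SPINT1 at -0.37, -0.93 and -1.40 log2 RPKM in Ov4Cis and 3.69, 3.70 and 3.43 in Ov4Carbo4 (difference -4.51, SE 0.27, adjusted p = 1.2e-07). PRSS8 was at -2.14, -3.03 and -2.46 log2 RPKM in Ov4Cis and 4.15, 4.56 and 4.06 in Ov4Carbo4 (difference -6.8, SE 0.42, adjusted p = 1.35e-07) and ST14 at -1.75, -1.33 and -1.34 log2 RPKM in Ov4Cis and 4.01, 3.69 and 3.77 in Ov4Carbo4 (difference -5.30, SE 0.28, adjusted p = 4.09e-08). Enzymes and inhibitors thus lay at 2 separate levels in the 2 lines, with no overlap. The summed level of the list was 4.03 to 4.83 RPKM in Ov4Cis and 128 to 139 in Ov4Carbo4. The 1 member not called was KLK8, whose 3 Ov4Cis values also lay below those of Ov4Carbo4. Several kallikreins (KLK5, KLK6, KLK7, KLK10) were called lower, but 6 of the 12 members stayed under a mean of log2 RPKM 1 in both lines. On the log2(RPKM + 1) scale 7 members of the list were called lower, with a median of -1.25. KLK7 stood at -5.33 with a title series term, and KLK10 was then not called (-1.12, adjusted p = 0.1).

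Desmosome, plakin and keratin genes were lower in Ov4Cis less uniformly, with 12 of 23 called lower and 1 higher (median -1.79). The share called was 56.5%, against 16.8% over all genes. KRT7, a keratin of simple epithelia used to type ovarian tumours, was at -0.13, -1.06 and -0.52 log2 RPKM in Ov4Cis and 5.89, 5.27 and 5.75 in Ov4Carbo4 (difference -6.20, SE 0.26, adjusted p = 5.38e-09), and KRT19 at -1.85, -2.93 and -2.57 log2 RPKM in Ov4Cis and 4.51, 4.30 and 4.01 in Ov4Carbo4 (difference -6.72, SE 0.25, adjusted p = 2.05e-09). Desmoplakin (DSP), which anchors keratin filaments to desmosomes, was at 4.67, 5.27 and 4.79 log2 RPKM in Ov4Cis and 6.85, 6.8 and 6.90 in Ov4Carbo4, lower by less (difference -1.94, SE 0.19, adjusted p = 5.63e-06). EPPK1, an epithelial plakin, differed by -7.13 (SE 0.49, adjusted p = 3.08e-07). Keratins therefore did not move as a block, since KRT18 did not pass the test while its partner KRT8 was called at -1.79. Reads of KRT6A, which was called at -2.33 (-4.77 with a title series term), may be shared with near-identical keratins. The desmosomal cadherin DSC3 was called higher at 1.30 (SE 0.34, adjusted p = 0.00837, 2.12 with a title series term), below log2 RPKM 0 in all 6 samples.

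**Figure D3:**
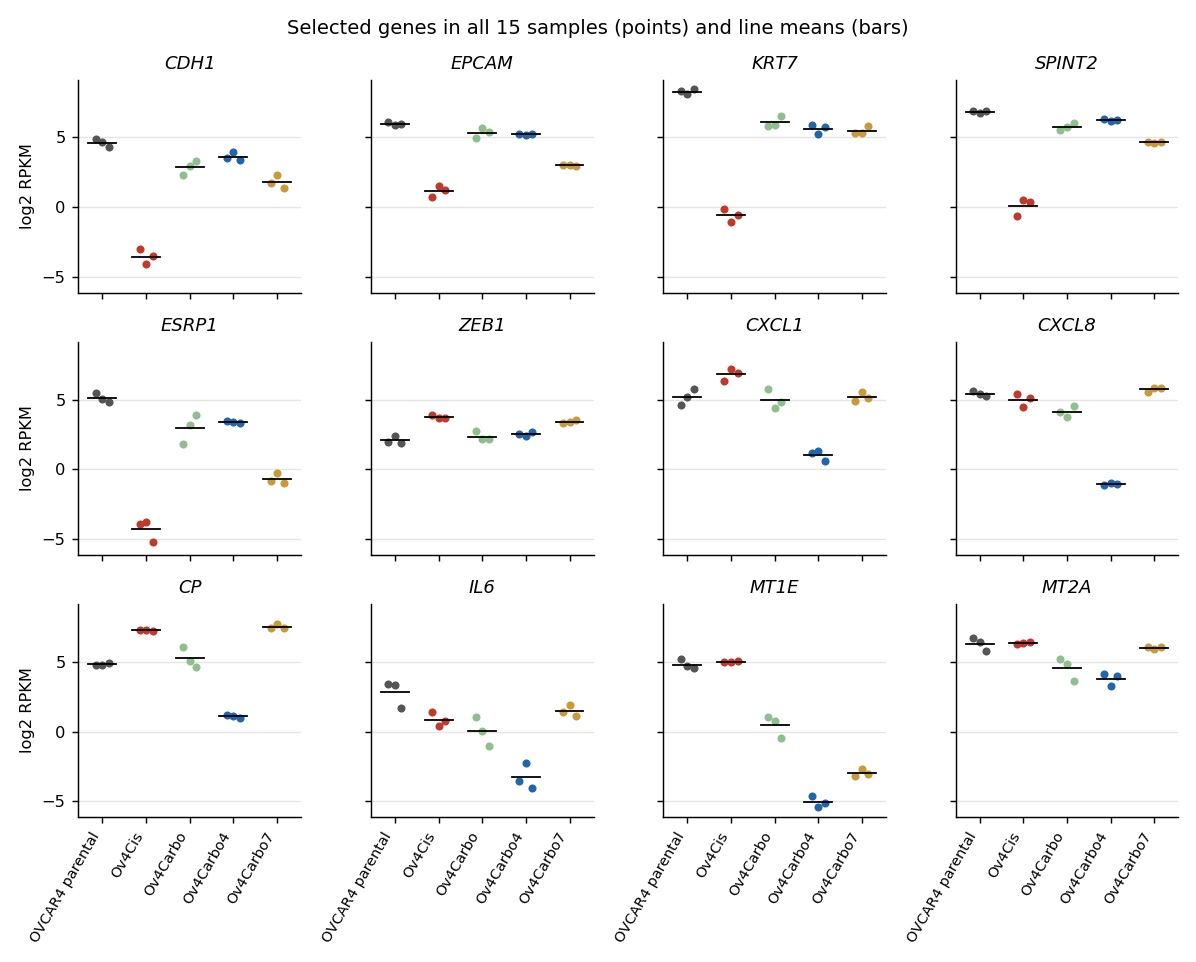
Level (y axis, log2 RPKM, same range in every panel) of 12 genes in all 15 samples (points) with line means (bars), by line. CDH1, EPCAM, KRT7, SPINT2 and ESRP1 are lowest in Ov4Cis, ZEB1 is highest there, and CXCL1, CXCL8, CP, IL6, MT1E and MT2A are lowest in Ov4Carbo4, which has for example -1.09, -0.95 and -1.05 log2 RPKM of CXCL8.

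Mesenchymal genes were called in both directions. Of 20 measured regulators and cytoskeletal genes, 4 were called higher in Ov4Cis and 5 lower, 45% against 16.8% over all genes. The median was 0.00. The counts turned to 6 higher and 3 lower with a title series term, with a median of 0.49. ZEB1, the repressor of epithelial genes, was at 3.92, 3.66 and 3.69 log2 RPKM in Ov4Cis and 2.52, 2.39 and 2.70 in Ov4Carbo4 (difference 1.22, SE 0.17, adjusted p = 0.000101), and N-cadherin (CDH2) at 5.91, 6.17 and 6.12 log2 RPKM in Ov4Cis and 4.14, 3.93 and 4.60 in Ov4Carbo4 (difference 1.84, SE 0.30, adjusted p = 0.000348). The forkhead factor FOXC1 was at 4.43, 3.81 and 3.91 log2 RPKM in Ov4Cis and 1.66, 1.38 and 1.74 in Ov4Carbo4 (difference 2.46, SE 0.26, adjusted p = 1.25e-05). The homeobox factor MSX2 went the other way, at 4.08, 3.79 and 4.09 log2 RPKM in Ov4Cis and 6.66, 6.23 and 6.37 in Ov4Carbo4 (difference -2.44, SE 0.15, adjusted p = 1.62e-07). Of the contractile genes, MYL9 (myosin light chain) was at -0.64, -1.51 and -0.73 log2 RPKM in Ov4Cis and 3.71, 2.99 and 3.50 in Ov4Carbo4 and TAGLN (transgelin) at 0.70, 1.84 and 1.71 log2 RPKM in Ov4Cis and 4.26, 3.07 and 4.37 in Ov4Carbo4, called lower with differences of -4.36 (SE 0.85, adjusted p = 0.0013) and -2.48 (SE 0.49, adjusted p = 0.00132). With a title series term these 2 differences were -2.59 and -0.72, with adjusted p of 0.2 and 0.428, and were no longer called. The contractile gene ACTA2 was called higher at 2.95, and CNN1 was called lower at -2.44 (-5.40 with a title series term). Vimentin (VIM), the intermediate filament of mesenchymal cells, was among the most abundant transcripts of both lines at 8.55, 8.88 and 8.85 log2 RPKM in Ov4Cis and 8.35, 8.03 and 8.38 in Ov4Carbo4 and was not called (difference 0.51, SE 0.21, adjusted p = 0.0665). It was called higher with a title series term (1.19, adjusted p = 0.0125). The receptor AXL, often tied to a mesenchymal state, overlapped between the lines at 4.12, 4.40 and 4.82 log2 RPKM in Ov4Cis and 4.92, 4.81 and 4.78 in Ov4Carbo4, and its difference of -0.39 was -1.24 with a title series term, called in neither fit.

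Matrix genes changed in both directions, with 11 of 35 called higher and 7 lower, 51.4% against 16.8% over all genes (median 0.19). Fibronectin (FN1, ENSG00000115414) was at 1.90, 2.58 and 2.29 log2 RPKM in Ov4Cis and -4.98, -4.95 and -4.77 in Ov4Carbo4, a difference of 7.16 (SE 0.41, adjusted p = 6.82e-08) and of 2.49 on the log2(RPKM + 1) scale. Versican (VCAN), a matrix proteoglycan, was at 6.97, 6.90 and 7.01 log2 RPKM in Ov4Cis and 4.14, 3.62 and 4.38 in Ov4Carbo4 (difference 2.91, SE 0.26, adjusted p = 2.64e-06), and TGFBI, an integrin-binding matrix protein, at 5.36, 4.64 and 5.21 log2 RPKM in Ov4Cis and 3.16, 2.24 and 2.82 in Ov4Carbo4 (difference 2.33, SE 0.39, adjusted p = 0.000438). Those 3 were separated upwards in Ov4Cis. In the other direction LOXL1, which crosslinks elastin, was at -1.91, -1.18 and -0.96 log2 RPKM in Ov4Cis and 4.33, 4.34 and 4.06 in Ov4Carbo4 (difference -5.60, SE 0.31, adjusted p = 5.56e-08), and fibrillin FBN2 at -4.71, -4.29 and -3.40 log2 RPKM in Ov4Cis and 2.76, 2.30 and 3.14 in Ov4Carbo4 (difference -6.87, SE 0.34, adjusted p = 2.11e-08). COL5A1 differed by -3.04 (SE 0.35, adjusted p = 2.52e-05) and COL1A1 by -1.37 (SE 0.17, adjusted p = 5.36e-05). COL1A2, the partner chain of COL1A1 in type I collagen, was called in the opposite direction at 1.57 (SE 0.42, adjusted p = 0.00935) but stayed below log2 RPKM -2 in all 6 samples. Its call was lost with a title series term (0.70, adjusted p = 0.49). SPARC, a secreted matrix glycoprotein, was at 6.85, 7.12 and 7.15 log2 RPKM in Ov4Cis and 7.11, 6.91 and 6.74 in Ov4Carbo4 and overlapped, and COL11A1 was at the bottom of the scale in both lines. Without replicate 1 of Ov4Carbo4, 4 matrix genes rather than 7 were called lower.

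Integrins and laminins changed in both directions. The integrin ITGB4, of epithelial hemidesmosomes, was lower in Ov4Cis, at -0.04, 0.43 and -0.08 log2 RPKM in Ov4Cis and 3.48, 3.38 and 3.37 in Ov4Carbo4 (difference -3.31, SE 0.19, adjusted p = 9.15e-08). LAMA2, a laminin chain typical of muscle and mesenchyme, was higher at 2.73, 2.31 and 2.38 log2 RPKM in Ov4Cis and -0.95, -1.38 and -1.12 in Ov4Carbo4 (difference 3.62, SE 0.15, adjusted p = 6.06e-09). LAMB2 was higher by 1.31 (SE 0.18, adjusted p = 8.22e-05) and the integrin ITGB2, best known from leukocytes, by 2.39 (SE 0.41, adjusted p = 0.000554). LAMA5 differed by -1.1 (SE 0.16, adjusted p = 0.000149), a call that was lost without replicate 3 of Ov4Cis. ITGB6, a partner of the epithelial receptor for latent TGF-beta, was called at -1.44 (SE 0.34, adjusted p = 0.00453) and not with a title series term (-0.16, adjusted p = 0.809). In all, 7 of 28 measured members were called higher and 6 lower, 46.4% against 16.8% over all genes. The median was 0.32. A title series term gave 10 higher and 3 lower, 9 of them as before, and on the log2(RPKM + 1) scale 3 were called in each direction.

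HOX genes, which specify position along the body axis, were mostly higher in Ov4Cis. Of 27 measured genes of the 4 clusters, 17 were called higher and 3 lower, 74.1% against 16.8% over all genes. The median was 1.21. The summed level was 158 to 201 RPKM in Ov4Cis and 60.02 to 66.9 in Ov4Carbo4, and 130 to 180 in the parental line. HOXA11 was at 3.95, 4.10 and 3.98 log2 RPKM in Ov4Cis and 1.30, 1.12 and 1.07 in Ov4Carbo4 (difference 2.84, SE 0.17, adjusted p = 1.2e-07), HOXB4 at 4.26, 4.63 and 4.25 log2 RPKM in Ov4Cis and 2.39, 2.27 and 2.40 in Ov4Carbo4 (difference 2.03, SE 0.16, adjusted p = 1.13e-06) and HOXD1 at 3.45, 4.26 and 3.38 log2 RPKM in Ov4Cis and -0.36, -1.20 and -0.66 in Ov4Carbo4 (difference 4.44, SE 0.44, adjusted p = 7.15e-06). For HOXB4 the parental mean of 3.52 lay nearer to Ov4Cis, whereas HOXD1 had a parental mean of -6.47. The 3 called lower were neighbours of the HOXC cluster on chromosome 12, HOXC8 (difference -3.41, SE 0.62, adjusted p = 0.000776, -5.88 with a title series term), HOXC9 (difference -2.89, SE 0.26, adjusted p = 2.93e-06) and HOXC10 (difference -1.73, SE 0.42, adjusted p = 0.0056, -3.49 with a title series term). All HOXC values lay below log2 RPKM 1, and none of the 3 was called on the log2(RPKM + 1) scale. With a title series term 11 HOX genes were called higher and the same 3 lower.

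Chemokines, cytokines and acute-phase genes were higher in Ov4Cis as a group. Of 37 measured, 24 were called higher and 4 lower, 75.7% against 16.8% over all genes. The median difference was 1.97, or 0.83 on the log2(RPKM + 1) scale. The summed level was 791 to 965 RPKM in Ov4Cis and 165 to 205 in Ov4Carbo4. It was 521 to 538 in the parental line, 809 to 1074 in Ov4Carbo7 and 275 to 598 in Ov4Carbo, so Ov4Carbo4 was below every other line. With a title series term 24 were called higher and 3 lower, 25 of them as before.

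A group of 6 CXC chemokines that recruit neutrophils lies together on chromosome 4, and all 6 were called higher. Their promoters are shown because each holds the 9 letters GGAATTTCC, a classical NF-kB site, a short way before the start of transcription. The stretches of 49 bases come from RefSeq (GRCh38.p14), run 5′ to 3′ on the gene's strand, and have the site in capitals.
CXCL1, chr4:73869295-73869343, plus strand: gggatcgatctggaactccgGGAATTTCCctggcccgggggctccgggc
CXCL2, chr4:74099244-74099292, minus strand: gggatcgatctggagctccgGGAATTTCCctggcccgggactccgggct
CXCL3, chr4:74038739-74038787, minus strand: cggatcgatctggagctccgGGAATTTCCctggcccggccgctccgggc
CXCL5, chr4:73998739-73998787, minus strand: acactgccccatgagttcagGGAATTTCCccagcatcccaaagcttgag
CXCL6, chr4:73836569-73836617, plus strand: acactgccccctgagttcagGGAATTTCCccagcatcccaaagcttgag
CXCL8, chr4:73740458-73740506, plus strand: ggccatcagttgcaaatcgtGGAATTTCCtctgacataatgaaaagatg

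The site began between 77 bases (CXCL2) and 91 bases (CXCL8) before the start. The flanks of CXCL1, CXCL2 and CXCL3 are near copies of each other, as are those of CXCL5 and CXCL6, so these are related copies and not independent observations. Searched on both strands, GGAATTTCC occurred in 162 of 35116 promoters of 300 bases, 0.461%. Of the chemokine list, 23 of 37 genes had a promoter entry, and 8 held the letters. They were found in 6 of 14 promoters of genes called higher and in 2 of 9 others, NFKBIA and ICAM1. A match describes the letters of the reference genome, and binding was not measured here.

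CXCL1 stood at 6.32, 7.17 and 6.92 log2 RPKM in Ov4Cis and 1.20, 1.34 and 0.64 in Ov4Carbo4 (difference 5.74, SE 0.38, adjusted p = 2.26e-07), and CXCL8 (interleukin-8) at 5.39, 4.45 and 5.08 log2 RPKM in Ov4Cis and -1.09, -0.95 and -1.05 in Ov4Carbo4 (difference 6.0, SE 0.24, adjusted p = 3.42e-09). CXCL5 was at 6.30, 5.30 and 5.47 log2 RPKM in Ov4Cis and -1.20, -2.17 and -1.91 in Ov4Carbo4 (difference 7.45, SE 0.60, adjusted p = 1.32e-06). CXCL1 was highest in Ov4Cis among the 5 lines, whereas the CXCL8 mean of Ov4Cis, 4.97, lay below that of the parental line, 5.41, and of Ov4Carbo7, 5.75. The other 3 were lower in level, with 1.65, 1.47 and 1.96 log2 RPKM in Ov4Cis and -4.89, -4.77 and -5.31 in Ov4Carbo4 for CXCL6, 1.42, 0.72 and 1.23 log2 RPKM in Ov4Cis and -2.99, -3.52 and -3.12 in Ov4Carbo4 for CXCL2 and 0.39, 0.37 and 0.53 log2 RPKM in Ov4Cis and -2.63, -1.59 and -2.64 in Ov4Carbo4 for CXCL3. Their differences were 6.68, 4.33 and 2.71. None of the 6 overlapped between the lines. CXCL1, CXCL2 and CXCL3 are close in sequence, and reads may be split among them. The cytokine IL6 was at 1.40, 0.41 and 0.72 log2 RPKM in Ov4Cis and -3.52, -2.23 and -4.01 in Ov4Carbo4 (difference 4.10, SE 0.60, adjusted p = 0.000165). NFKBIA, the NF-kB inhibitor that is itself an NF-kB target, was at 4.80, 4.15 and 4.34 log2 RPKM in Ov4Cis and 4.51, 4.70 and 4.24 in Ov4Carbo4 and overlapped. TNFAIP3, by contrast, was called higher at 1.17 (2.52 with a title series term).

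The acute-phase proteins showed some of the widest gaps. Ceruloplasmin (CP, ENSG00000047457, chromosome 3), the copper-carrying ferroxidase of plasma, was at 7.26, 7.28 and 7.16 log2 RPKM in Ov4Cis and 1.22, 1.08 and 0.96 in Ov4Carbo4 (difference 6.15, SE 0.26, adjusted p = 4.95e-09). Complement C3 was at 7.87, 7.24 and 7.27 log2 RPKM in Ov4Cis and 3.11, 3.14 and 2.76 in Ov4Carbo4 (difference 4.46). Haptoglobin (HP), which binds free haemoglobin, was at 2.55, 3.10 and 2.10 log2 RPKM in Ov4Cis and -5.84, -6.23 and -6.0 in Ov4Carbo4 (difference 8.60, SE 0.55, adjusted p = 1.71e-07), and 2.79 apart with the pseudocount. The HP means of the other 3 lines lay between -6.75 and -3.62, so HP was above log2 RPKM 0 in Ov4Cis alone, and HP shares sequence with its neighbour HPR. SAA1 and SAA2, near-identical serum amyloid genes, were called at 5.22 and 2.98, and LCN2 at 3.59. LCN2 stood at 7.30 with a title series term, and SAA2 was then not called (3.24, adjusted p = 0.117). In the other direction CXCL16 was at -1.41, -0.28 and -0.80 log2 RPKM in Ov4Cis and 2.28, 2.41 and 2.24 in Ov4Carbo4 (difference -3.14, SE 0.32, adjusted p = 8.29e-06), IL11 differed by -2.49 (SE 0.40, adjusted p = 0.000307) at levels under log2 RPKM 1, and C1R was called at -1.49. IL32 was called at -1.21 (SE 0.24, adjusted p = 0.00152) and lost its call with a title series term (-0.84, adjusted p = 0.161).

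Interferon-response genes were less even. Of 45 measured, 9 were called higher and 1 lower, 22.2% of the list against 16.8% over all genes, with a median of 0.19. At an adjusted p under 0.01, 0 were called higher and 1 lower. IFI27 was at 2.08, 3.90 and 2.94 log2 RPKM in Ov4Cis and 1.38, 1.40 and 1.16 in Ov4Carbo4 (difference 1.66, SE 0.58, adjusted p = 0.0347, 3.69 with a title series term). IFI44L was at 1.85, 3.26 and 2.71 log2 RPKM in Ov4Cis and 0.34, 0.68 and 0.02 in Ov4Carbo4 (difference 2.26, SE 0.71, adjusted p = 0.021, 5.31 with a title series term), SAMD9L at 1.83, 3.10 and 2.75 log2 RPKM in Ov4Cis and 0.30, 0.43 and 0.40 in Ov4Carbo4 (difference 2.18, SE 0.71, adjusted p = 0.0249, 5.60 with a title series term) and OAS2 at 0.82, 2.14 and 1.40 log2 RPKM in Ov4Cis and -1.28, -1.47 and -1.43 in Ov4Carbo4 (difference 2.85, SE 0.79, adjusted p = 0.0114, 6.56 with a title series term). Replicate 2 of Ov4Cis was the highest of its line in these 4. The calls of IFI27 and SAMD9L were lost in 5 of the 6 fits without 1 of these samples and that of IFI44L in 4. ISG15, a ubiquitin-like target of interferon, overlapped at 5.05, 5.52 and 5.08 log2 RPKM in Ov4Cis and 5.23, 5.22 and 5.20 in Ov4Carbo4, and with a title series term it was called at 1.29 (adjusted p = 0.0233). IFITM1 was lower at 0.51, 0.81 and 0.24 log2 RPKM in Ov4Cis and 2.61, 2.78 and 2.42 in Ov4Carbo4 (difference -2.08, SE 0.34, adjusted p = 0.000348). The number called higher was 2 without Ov4Cis replicate 2, Ov4Carbo4 replicate 1 or Ov4Carbo4 replicate 3, and 4 without Ov4Cis replicate 3. With a title series term it was 31, and IFITM1 was then not called (-1.24, adjusted p = 0.111). Replicate 1 of Ov4Carbo, on which that term rests, had a summed level of 1240 RPKM for this list, against 541 and 463 in its other replicates.

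Genes of antigen presentation on MHC class I showed 1 call in 18, 5.56% against 16.8% over all genes. It was HLA-F at -1.02 (SE 0.34, adjusted p = 0.0288), which had the other sign with a title series term (0.11, adjusted p = 0.889). That call was also lost without Ov4Cis replicate 1 or 3 and without Ov4Carbo4 replicate 1 or 3. TAP1, a chain of the peptide transporter, was at 1.47, 2.36 and 1.58 log2 RPKM in Ov4Cis and 2.79, 2.66 and 2.56 in Ov4Carbo4. All Ov4Cis values lay below those of Ov4Carbo4, with a difference of -0.87 (SE 0.44, adjusted p = 0.13) that was not called. B2M, the common light chain, was at 7.28, 7.76 and 7.41 log2 RPKM in Ov4Cis and 7.17, 7.21 and 7.08 in Ov4Carbo4 and not called. B2M was called with a title series term, at 1.11 (adjusted p = 0.00401), and 6 genes of the list were called higher and 0 lower. HLA genes share sequence, so reads may be split among them.

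Among genes of platinum transport and detoxification, 7 of 38 were called higher in Ov4Cis and 3 lower, 26.3% of the list against 16.8% over all genes. The median was 0.17. The largest difference of the list was in a metallothionein, one of the small cysteine-rich proteins that bind metals. MT1E (ENSG00000169715, chromosome 16) was at 4.99, 4.98 and 5.01 log2 RPKM in Ov4Cis and -4.58, -5.42 and -5.14 in Ov4Carbo4 (difference 10.04, SE 0.33, adjusted p = 1e-09), and 4.99 apart with the pseudocount. MT2A was at 6.28, 6.36 and 6.40 log2 RPKM in Ov4Cis and 4.11, 3.25 and 3.98 in Ov4Carbo4 (difference 2.57, SE 0.35, adjusted p = 8.32e-05). MT1X, at 1.59, 1.20 and 1.54 log2 RPKM in Ov4Cis and 1.05, 0.34 and 1.17 in Ov4Carbo4, was not called. The metal response element TGCACNC or TGCGCNC, searched on both strands, occurred 8 times in the 300-base RefSeq promoter of MT2A and 4 times in that of MT1X, and in 29.6% of all promoters. The MT1E mean was 4.79 in the parental line, 0.43 in Ov4Carbo and -2.98 in Ov4Carbo7. Metallothionein genes are near-identical, so reads may be split among them.

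Of the glutathione system, MGST1 and SLC7A11 were higher. MGST1, a membrane glutathione transferase, was at 5.61, 5.35 and 5.43 log2 RPKM in Ov4Cis and 1.16, 0.82 and 0.98 in Ov4Carbo4 (difference 4.48, SE 0.16, adjusted p = 2.05e-09). SLC7A11, which imports cystine for glutathione synthesis, was at 5.20, 4.60 and 4.89 log2 RPKM in Ov4Cis and 2.09, 2.55 and 1.68 in Ov4Carbo4 (difference 2.79, SE 0.27, adjusted p = 5.82e-06). For both genes Ov4Carbo4 was the low line, since the parental means were 4.38 and 4.01. The 3 called lower were transporters, while the efflux pumps ABCC2 and ABCC3 were called higher, at 1.52 and 1.25. ABCC2 was not called with a title series term (1.48, adjusted p = 0.0698). The copper importer SLC31A1 (CTR1), also described as a route of platinum uptake, was at 3.39, 3.35 and 3.27 log2 RPKM in Ov4Cis and 4.48, 4.51 and 4.38 in Ov4Carbo4 (difference -1.12, SE 0.17, adjusted p = 0.000224), with a parental mean of 3.67. The copper exporter ATP7B was at -0.15, -0.31 and -0.68 log2 RPKM in Ov4Cis and 1.17, 1.46 and 1.21 in Ov4Carbo4 (difference -1.66, SE 0.21, adjusted p = 4.77e-05) and lost its call on the log2(RPKM + 1) scale, and the efflux pump ABCC4 differed by -1.33 (SE 0.17, adjusted p = 4.87e-05). The other copper exporter, ATP7A, was at 2.24, 2.10 and 2.04 log2 RPKM in Ov4Cis and 2.59, 2.65 and 2.49 in Ov4Carbo4. Its difference of -0.45 (SE 0.15, adjusted p = 0.0326) passed the adjusted p but not the size limit. ABCB1, a multidrug efflux pump, lay between -6.45 and -6.0 in all 6 samples, at the lower end of the scale. A title series term gave ABCB1 a difference of 6.34, with replicate 1 of Ov4Carbo at -0.41 and its replicates 2 and 3 at -6.37 and -7.30.

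Few crosslink repair genes were called. Of 53 measured, 1 was called higher and 2 lower, 5.66% against 16.8% over all genes, with a median of -0.14. BRCA2, a homologous recombination factor, was at 1.30, 1.56 and 1.42 log2 RPKM in Ov4Cis and 2.79, 2.68 and 2.84 in Ov4Carbo4 (difference -1.34, SE 0.16, adjusted p = 2.88e-05). FANCC, of the Fanconi anaemia core complex, was at 2.36, 2.69 and 2.57 log2 RPKM in Ov4Cis and 3.88, 3.76 and 3.87 in Ov4Carbo4 (difference -1.30, SE 0.11, adjusted p = 2.35e-06), and the recombination factor XRCC3 at 4.07, 4.44 and 4.46 log2 RPKM in Ov4Cis and 3.28, 3.02 and 3.24 in Ov4Carbo4 (difference 1.15, SE 0.15, adjusted p = 5.31e-05). All 3 were separated. For FANCC the parental mean of 2.64 was near Ov4Cis, whereas for BRCA2 the parental mean was 2.34, between the lines. ERCC1, the non-catalytic subunit of a crosslink excision nuclease, was at 4.03, 3.98 and 3.99 log2 RPKM in Ov4Cis and 3.54, 3.46 and 3.41 in Ov4Carbo4 and BRCA1 at 2.82, 3.24 and 3.10 log2 RPKM in Ov4Cis and 3.45, 3.39 and 3.42 in Ov4Carbo4. Their differences of 0.53 (SE 0.11, adjusted p = 0.0021) and -0.37 (SE 0.14, adjusted p = 0.0461) passed the adjusted p but not the size limit.

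Genes of apoptosis and the damage response had 3 members of 42 called higher and 4 lower, 16.7%, which is near the share over all genes. FAS, a death receptor, was at 2.17, 1.26 and 1.48 log2 RPKM in Ov4Cis and 0.28, -0.08 and -0.36 in Ov4Carbo4 (difference 1.69, SE 0.28, adjusted p = 0.000345, 2.60 with a title series term), and BMF, a pro-apoptotic BCL2 relative, at -2.74, -3.10 and -2.50 log2 RPKM in Ov4Cis and 1.59, 1.44 and 1.45 in Ov4Carbo4 (difference -4.27, SE 0.52, adjusted p = 3.32e-05, -6.52 with a title series term). BIK, another such relative, differed by -1.33 (SE 0.22, adjusted p = 0.000349). CASP1, the inflammasome caspase, was higher by 4.64 (SE 0.57, adjusted p = 4e-05, 7.07 with a title series term), and SPATA18 by 6.61 (SE 0.27, adjusted p = 4.01e-09) although it stayed below log2 RPKM 0. BCL2 was called at -1.1 (SE 0.34, adjusted p = 0.0186), and the call was lost with a title series term (-0.66, adjusted p = 0.434) and without Ov4Cis replicate 1 or Ov4Carbo4 replicate 1 or 3. CDKN1A, an inhibitor of cyclin-dependent kinases, was at 1.48, 2.04 and 1.81 log2 RPKM in Ov4Cis and 2.83, 5.15 and 2.26 in Ov4Carbo4 and not called (difference -1.64, SE 0.74, adjusted p = 0.0899, and -3.12 with a title series term, also not called). Replicate 2 of Ov4Carbo4 stood far above the other samples for CDKN1A, and without Ov4Carbo4 replicate 3 the gene was called.

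Proliferation genes gave 1 call in 42, 2.38% against 16.8% over all genes. It was CDK6, at 5.65, 6.14 and 6.28 log2 RPKM in Ov4Cis and 4.18, 4.10 and 4.32 in Ov4Carbo4 (difference 1.82, SE 0.24, adjusted p = 7.23e-05). MKI67, the Ki-67 antigen, was at 6.50, 6.90 and 6.83 log2 RPKM in Ov4Cis and 7.36, 7.21 and 7.25 in Ov4Carbo4, a difference of -0.53 (SE 0.16, adjusted p = 0.0161) under the size limit. CCNE1, CCND1 and CDKN2A were not called, with differences of 0.09, 0.07 and 0.13. The list's median of -0.14 was close to the -0.03 of all genes.

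Of 24 stress and immediate-early genes, 4 were called higher and 1 lower, 20.8%, near the share over all genes. The counts were 3 higher and 4 lower with a title series term, and the median was -0.23 in place of 0.18. FOS was at 6.74, 6.77 and 6.64 log2 RPKM in Ov4Cis and 4.02, 5.39 and 3.75 in Ov4Carbo4 (difference 2.33, SE 0.58, adjusted p = 0.0064), FOSB at 5.40, 5.58 and 5.79 log2 RPKM in Ov4Cis and 1.83, 3.41 and 1.86 in Ov4Carbo4 (difference 3.22, SE 0.77, adjusted p = 0.00474) and FOSL1 at 3.37, 3.71 and 4.13 log2 RPKM in Ov4Cis and 1.94, 2.21 and 1.87 in Ov4Carbo4 (difference 1.73, SE 0.29, adjusted p = 0.000453). These are subunits of the transcription factor AP-1, and FOS and FOSB respond within minutes to serum or handling. Replicate 2 of Ov4Carbo4 was above its fellow replicates for FOS and FOSB and still below every Ov4Cis sample. The FOS difference was 2.48 with a title series term (adjusted p = 0.105) and not called. The chaperone HSPH1 was called at -1.02 (SE 0.22, adjusted p = 0.00243) and not with that term (-0.27, adjusted p = 0.537), nor without Ov4Cis replicate 1 or Ov4Carbo4 replicate 3.

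BMP signalling acts through SMAD1, SMAD5 and SMAD9 on the ID genes, which encode inhibitors of helix-loop-helix factors, and is held back by secreted antagonists such as gremlin and chordin. In Ov4Cis all 4 ID genes were called lower, 2 of the BMP ligands were lower and 2 antagonists were higher. BMP4 was at 2.47, 2.09 and 2.54 log2 RPKM in Ov4Cis and 4.24, 4.28 and 4.18 in Ov4Carbo4 (difference -1.87, SE 0.22, adjusted p = 2.66e-05), and BMP7 was called at -1.26 but not with a title series term (-0.83, adjusted p = 0.334). The transducer SMAD9 was at -1.04, -0.38 and -0.77 log2 RPKM in Ov4Cis and 2.54, 2.15 and 2.15 in Ov4Carbo4 (difference -3.01, SE 0.27, adjusted p = 3.12e-06). SMAD1 and SMAD5 were not called, at -0.29 and -0.52, and neither were the receptors BMPR1A, BMPR1B and BMPR2. SMAD6 was called lower at -1.15, but not with a title series term (-0.84, adjusted p = 0.189). ID4 was at 4.17, 4.64 and 4.62 log2 RPKM in Ov4Cis and 7.03, 6.84 and 6.96 in Ov4Carbo4 (difference -2.47, SE 0.24, adjusted p = 6.83e-06) and ID3 at 4.93, 5.90 and 5.96 log2 RPKM in Ov4Cis and 7.72, 7.49 and 7.59 in Ov4Carbo4 (difference -2.01, SE 0.37, adjusted p = 0.000845), and ID1 and ID2 were called at -1.1 and -1.90. No ID gene overlapped between the lines. Gremlin (GREM1) was at 3.12, 4.53 and 5.05 log2 RPKM in Ov4Cis and -0.07, -1.0 and -0.50 in Ov4Carbo4 (difference 4.76, SE 0.78, adjusted p = 0.000373, 7.79 with a title series term), and chordin (CHRD) was called at 2.65. The ligands BMP2 and BMP6 and the antagonist noggin (NOG) were not called, with differences of 0.63, 0.53 and -0.53, and the follistatin relative FSTL1 was called lower at -1.78. FSTL1 was not called with a title series term (-0.76, adjusted p = 0.336), whereas BMP6 and NOG were called higher, at 2.19 (adjusted p = 0.00147) and 2.88 (adjusted p = 0.00286). On the TGF-beta side the receptor TGFBR2 was at 6.50, 6.77 and 6.63 log2 RPKM in Ov4Cis and 4.68, 4.39 and 4.49 in Ov4Carbo4 (difference 2.12, SE 0.32, adjusted p = 0.000211, 3.47 with a title series term) and the latent binding protein LTBP2 was higher by 1.89 (SE 0.17, adjusted p = 3.7e-06), while its relative LTBP1 was called lower at -2.06. The ligand TGFB2, at -1.11, -0.11 and -0.30 log2 RPKM in Ov4Cis and -0.94, -1.14 and -0.99 in Ov4Carbo4, overlapped and was not called. Over the 44 measured genes of both branches, 5 were called higher and 11 lower, 36.4% against 16.8% over all genes. The median was -0.29. A title series term gave 8 calls in each direction, 12 of them as before.

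NOTCH receptors act through HES and HEY repressors. HEY1 was lower in Ov4Cis at -0.60, 0.53 and -0.06 log2 RPKM in Ov4Cis and 4.01, 3.22 and 4.04 in Ov4Carbo4 (difference -3.80, SE 0.33, adjusted p = 2.28e-06), and HES4 at 2.22, 3.02 and 2.64 log2 RPKM in Ov4Cis and 4.94, 5.03 and 4.92 in Ov4Carbo4 (difference -2.34, SE 0.19, adjusted p = 1.13e-06). HEY2 was the opposite, at 1.33, 2.27 and 1.98 log2 RPKM in Ov4Cis and -5.45, -6.37 and -5.38 in Ov4Carbo4 (difference 7.59, SE 0.54, adjusted p = 4.6e-07), and its parental mean was 2.97, against -6.09 in Ov4Carbo. The ligand JAG1 was called at -1.44 (SE 0.39, adjusted p = 0.00978) and not with a title series term (-0.95, adjusted p = 0.328) or without Ov4Cis replicate 1. The ligand DLL1 was called higher at 1.29 (SE 0.47, adjusted p = 0.0425, 2.91 with a title series term), a call lost in 5 of the 6 fits without 1 of these samples. The receptor NOTCH3 overlapped at 3.94, 3.21 and 3.35 log2 RPKM in Ov4Cis and 3.58, 3.75 and 3.39 in Ov4Carbo4, and with a title series term it was called at -1.13 (adjusted p = 0.0479). The Hedgehog genes GLI1, GLI2 and PTCH1 were called at -2.12 (-5.42 with a title series term), -1.22 and -1.68, while GLI3 was at 3.46, 3.59 and 3.58 log2 RPKM in Ov4Cis and 3.75, 3.85 and 3.83 in Ov4Carbo4 and not called. In all, 3 of 33 were called higher and 11 lower, 42.4% against 16.8% over all genes. The number called lower was 6 without Ov4Cis replicate 1 or on the log2(RPKM + 1) scale.

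Of 36 WNT pathway genes, 3 were called higher and 7 lower, with a median of -0.53, and 6 higher and 9 lower with a title series term. On the log2(RPKM + 1) scale 2 were called higher and 4 lower. The receptor FZD3 was at 0.19, 0.41 and -0.17 log2 RPKM in Ov4Cis and 2.45, 2.32 and 2.46 in Ov4Carbo4 (difference -2.27, SE 0.16, adjusted p = 4.09e-07). WNT5A, a ligand of the non-canonical branch, was at 2.42, 2.37 and 2.58 log2 RPKM in Ov4Cis and 1.03, 1.1 and 1.17 in Ov4Carbo4 (difference 1.36, SE 0.19, adjusted p = 0.00011), and its receptor ROR2 at 1.65, 2.32 and 1.93 log2 RPKM in Ov4Cis and 3.41, 3.29 and 3.29 in Ov4Carbo4 (difference -1.37, SE 0.28, adjusted p = 0.00165). With a title series term ROR2 was not called (-0.98, adjusted p = 0.154). WNT7A, a Mullerian WNT, differed by -1.15 (SE 0.21, adjusted p = 0.000771), and this call too was lost with that term (-0.61, adjusted p = 0.189) and without Ov4Cis replicate 1. The repressor TCF7L1 was higher at 3.36, 3.01 and 2.81 log2 RPKM in Ov4Cis and 1.37, 1.48 and 1.41 in Ov4Carbo4 (difference 1.64, SE 0.14, adjusted p = 2.71e-06). FZD8 was called at 1.1 (SE 0.39, adjusted p = 0.0365, 1.90 with a title series term), a call lost in 5 of the 6 fits without 1 of these samples.

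Receptor tyrosine kinases and ligands had 13 of 52 members called lower in Ov4Cis and 3 higher, 30.8% against 16.8% over all genes. The median of -0.22 was 0.15 with a title series term. On the log2(RPKM + 1) scale 8 were called lower. EPHA1, an ephrin receptor of epithelia, was at -3.19, -2.90 and -3.68 log2 RPKM in Ov4Cis and 3.0, 2.76 and 2.81 in Ov4Carbo4 (difference -6.11, SE 0.17, adjusted p = 2.48e-10). DDR1, a collagen receptor of epithelia, was at 2.50, 2.67 and 2.36 log2 RPKM in Ov4Cis and 5.07, 5.26 and 5.03 in Ov4Carbo4 (difference -2.61, SE 0.21, adjusted p = 1.06e-06), and ERBB3, the kinase-poor partner of ERBB2, at -0.32, -1.27 and -1.98 log2 RPKM in Ov4Cis and 2.60, 3.19 and 2.39 in Ov4Carbo4 (difference -3.92, SE 0.60, adjusted p = 0.000223, -6.0 with a title series term). ERBB2 itself was called at -1.85 (-1.07 with a title series term). EGFR, at 3.97, 4.80 and 4.96 log2 RPKM in Ov4Cis and 4.29, 4.26 and 4.22 in Ov4Carbo4, and MET, at 6.68, 6.39 and 6.24 log2 RPKM in Ov4Cis and 6.42, 6.56 and 6.42 in Ov4Carbo4, overlapped, and FGFR1 was at 4.92, 4.74 and 4.65 log2 RPKM in Ov4Cis and 5.14, 5.18 and 5.12 in Ov4Carbo4, so none of these 3 was called. IGFBP4, which binds insulin-like growth factors, was higher at 7.07, 7.07 and 6.97 log2 RPKM in Ov4Cis and 5.70, 5.69 and 5.25 in Ov4Carbo4 (difference 1.49, SE 0.22, adjusted p = 0.000176).

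Of 36 genes of hypoxia, glycolysis and lipid droplets, 6 were called higher and 0 lower, 16.7%, near the share over all genes. Next to PLIN2, NDRG1 was at 4.27, 3.96 and 3.92 log2 RPKM in Ov4Cis and 1.90, 1.79 and 1.86 in Ov4Carbo4 (difference 2.20, SE 0.60, adjusted p = 0.0105, 5.15 with a title series term) and BNIP3, a mitophagy receptor induced by hypoxia, at 4.75, 4.16 and 4.40 log2 RPKM in Ov4Cis and 3.12, 2.99 and 3.01 in Ov4Carbo4 (difference 1.40, SE 0.16, adjusted p = 2.56e-05). LDHA was at 7.78, 7.31 and 7.55 log2 RPKM in Ov4Cis and 7.16, 6.87 and 7.03 in Ov4Carbo4, a difference of 0.53 (SE 0.13, adjusted p = 0.00646) under the size limit, and LDHB overlapped. Leaving out Ov4Cis replicate 1 gave 2 genes called lower.

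**Figure D4:**
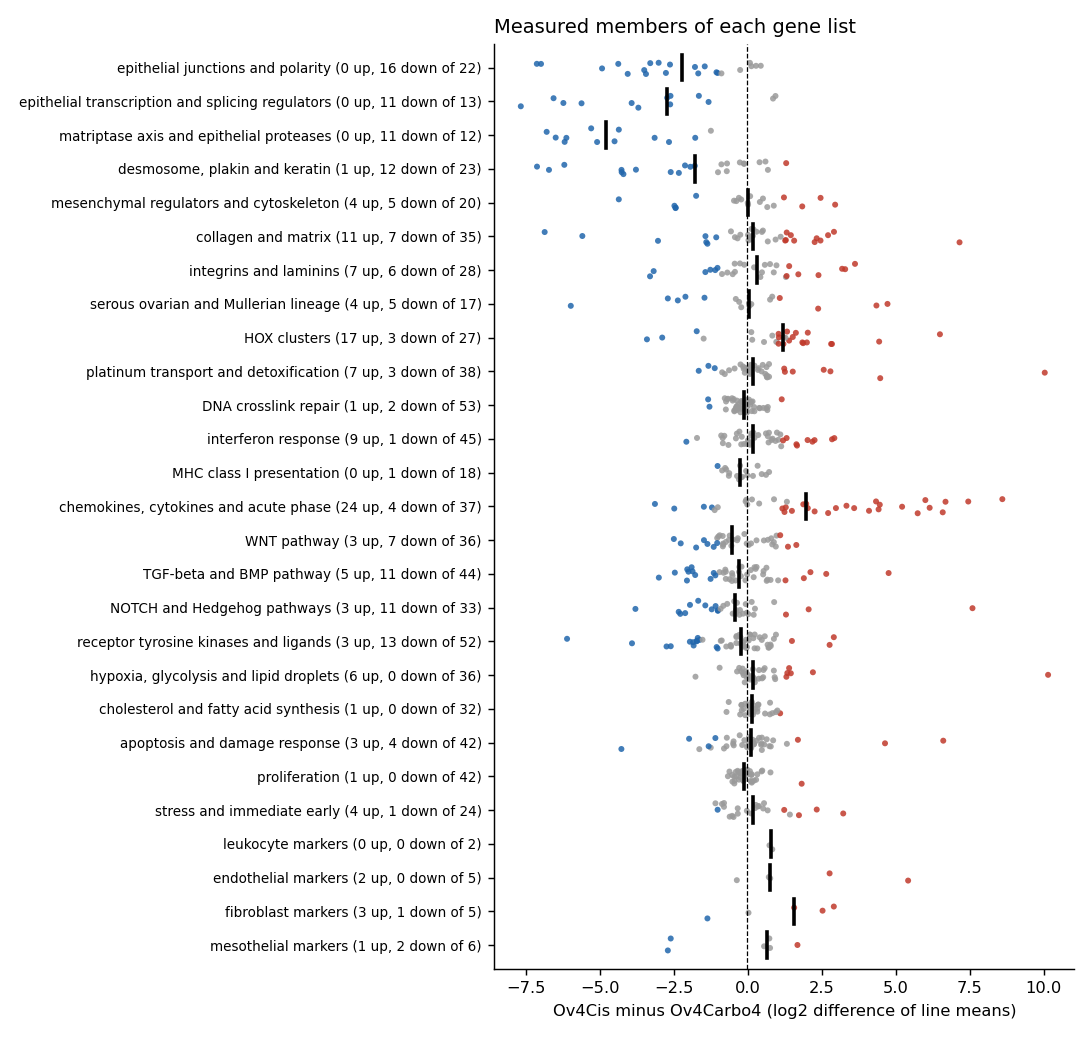
Difference Ov4Cis minus Ov4Carbo4 (x axis, log2) of every measured member of the 27 gene lists (points, red where called higher, blue where called lower, grey otherwise), with the list median as a black bar and the median of all genes as a dashed line. The 4 epithelial lists lie to the left, with medians from -4.80 to -1.79, and the chemokine, fibroblast marker and HOX lists to the right, with medians of 1.97, 1.57 and 1.21.

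The differences were also laid out along the chromosomes, over 11987 genes with a chromosome and a mean of at least log2 RPKM 1. Genes of chromosome 13 were mostly lower in Ov4Cis. The median difference of its 211 genes was -0.77, 84.4% of them were lower, and 74 were called lower against 2 higher, where 9.91% of these genes were called over all chromosomes. Against the parental mean, the chromosome 13 median was -0.82, -0.81 and -0.81 in the Ov4Cis samples and -0.04, -0.02 and -0.01 in those of Ov4Carbo4. It was -0.38, -0.37 and -0.41 in those of Ov4Carbo7 and -0.14, -0.05 and -0.02 in those of Ov4Carbo. Several genes described above lie there, namely BRCA2, ATP7B, ABCC4, SMAD9 and HSPH1. In windows of 31 neighbouring genes the lowest median on it was -1.17, from VPS36 to SLITRK5.

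Chromosomes 9 and 3 differed in Ov4Carbo4 instead. On chromosome 9 the median difference was -0.36, with 0.41, 0.41 and 0.42 in the Ov4Carbo4 samples against the parental mean and 0.01, 0.07 and 0.06 in those of Ov4Cis. Of the genes described, COL5A1, FANCC, ROR2 and SLC31A1 on that chromosome were called lower, and PTPRD and PLIN2 were called higher. On chromosome 3 it was 0.30, with -0.27, -0.29 and -0.27 in Ov4Carbo4 and 0.02, 0.01 and 0.04 in Ov4Cis, and of the genes described CP, TGFBR2, LAMB2, WNT5A and CD47 on it were called higher and ROBO1 and WNT7A lower. Chromosome 17 was above the parental level by a similar amount in both lines, 0.35 in Ov4Cis and 0.36 in Ov4Carbo4, and the median difference was -0.06. It was above that level in the other resistant lines too, by 0.30, 0.29 and 0.31 in the Ov4Carbo samples and 0.30, 0.31 and 0.31 in those of Ov4Carbo7. Shorter windows stood out on other chromosomes, such as 0.88 from NSUN5 to RSBN1L on chromosome 7, 0.90 from MTRES1 to FAM229B and -0.80 from NUDT3 to PIM1 on chromosome 6, and 0.76 from TM7SF2 to DRAP1 on chromosome 11. Gene order came from an annotation of another build than the authors', and no gene coordinates are given.

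**Figure D5:**
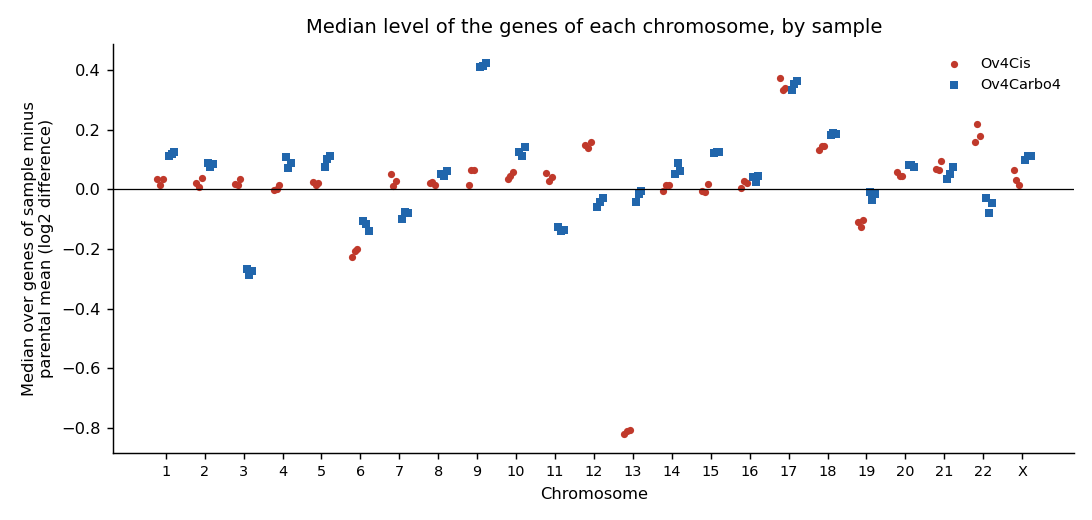
Median over the genes of each chromosome (x axis) of the sample's level minus the parental mean (y axis, log2 difference), for the 3 Ov4Cis samples (red circles) and the 3 Ov4Carbo4 samples (blue squares), genes of mean log2 RPKM 1 or more. Ov4Cis lies near -0.81 on chromosome 13, and Ov4Carbo4 near 0.41 on chromosome 9 and -0.28 on chromosome 3.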

How the data were processed

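RNA was extracted with a column kit and polyA libraries were sequenced at 1 centre, per the labels' protocols. The submitters' processing notes list BWA 0.7.15-r1140, HTSeq and the builds hg19 and GRCh37, without their roles. The authors deposited log2 RPKM after conditional quantile normalization, as the table's name states, with a threshold whose rule is not given in the sources used here. Depth per sample is unknown, so the spread between replicates is the measure of precision. Columns were matched to samples by the number in the sample title, and 0 sample pairs were identical.

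With limma 3.58.1 in R 4.3.3 (defaults, two-sided), line means were modelled over the 15 samples of the 5 lines, and Benjamini-Hochberg adjusted p-values cover the whole table of 16604 genes. The fit was tested on simulated data. Symbols matched 16448 genes and chromosomes (GENCODE v29) 16499. Genes were named by rule: the 12 largest rises and falls on the log2(RPKM + 1) scale among called and separated genes with a line mean of at least log2 RPKM 1, up to 3 called members of each list in each direction, list members marked as key, and other cell types' markers above log2 RPKM 1. A few genes that the rule names are not reported here, and genes outside it were named after their values were seen. The 27 lists (732 genes measured) and the comparison were chosen with earlier results of these data known, so list counts are descriptions. Figures used Python 3.11.15, pandas 2.3.3 and matplotlib 3.10.9.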

Additional observations from a re-analysis of the deposited data

How the results depend on the processing

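The number of calls moved most with a test against the size limit itself and where low levels were handled in another way. When only the 12037 genes of mean log2 RPKM 1 or more were tested, 1196 were called, 638 higher and 558 lower in Ov4Cis. On the log2(RPKM + 1) scale 1277 were called, 702 higher and 575 lower, and 22 of the 127 named calls were lost. A test against a log2 difference of 1 itself (limma's treat) called 1090, 614 higher and 476 lower, and 41 named calls were lost, among them those of ZEB1, CDH2, BRCA2, FANCC, XRCC3, SLC31A1 and FOS. A title series term, which rests on replicate 1 against replicates 2 and 3 of Ov4Carbo, called 3504, of which 2067 were called in the same direction without it and 1 in the opposite direction. It ended 14 named calls, added 8 (ABCB1, B2M, CASP8, CDH5, ERG, ISG15, NOTCH3 and VIM) and lowered the share of calls that were higher from 54.2% to 49.5%. The cause was not tested. A variance trend, centring on the sample median, quantile normalization, log2(RPKM + 0.1), the 6 samples alone and an adjusted p under 0.01 gave between 2436 and 2904 calls. Leaving out 1 of the 6 samples gave 2648 to 2742 calls, 1420 to 1469 higher and 1216 to 1273 lower, and leaving out replicate 1 of Ov4Carbo gave 2873.

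With the replicate number as a block, 2760 genes were called, 1498 higher and 1262 lower, and 0 of 127 named calls were lost. Samples of the same number did not pair, since their deviations from the line means correlated at -0.19 for number 1, -0.16 for number 2 and 0.19 for number 3.

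Among the genes named by the rule, the values that changed sign belong to genes that were not called, apart from HLA-F. With a title series term they were 6.34 for ABCB1, 0.10 for ATP7A, -0.62 for CDKN2A, 0.19 for FGFR1, 0.11 for HLA-F, 0.67 for MET and 1.01 for TAP1. Over the fits without 1 sample, the differences of those rule-named genes that changed sign ran from -0.22 to 0.0036 for ABCB1, -0.058 to 0.24 for CCND1, -0.083 to 0.41 for CCNE1, -0.15 to 0.083 for ISG15, -0.091 to 0.0089 for LDHB, -0.15 to 0.067 for MET, -0.29 to 0.077 for NOTCH3 and -0.13 to 0.34 for SOX17. Outside the rule, the called list members ITGA4 and MMP7 changed sign with a title series term, from 1.71 to -0.71 and from -1.41 to 0.10. Uncalled list members such as NOG changed sign with it too.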
